A study of Mus musculus with 19 samples.

Results

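The 8 genes described here carry or answer the signal of LIF (leukemia inhibitory factor) through the transcription factor STAT3. They are the receptor chains Lifr and Il6st, the kinases Jak1 and Jak2, the transcription factor Stat3, its feedback inhibitor Socs3, and the kinases Pim1 and Pim3. They were chosen by name and not by a measured value, though with earlier results of these data known. They are 8 of the 54119 genes obtained when the deposited transcript values were summed per gene. All 8 passed the filter on low values and were among the 14696 genes tested.

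RNA had been sequenced in 19 libraries of mouse cells in 6 groups, in which 3 genotypes were each measured as mouse embryonic stem cells (mESC) and as epiblast-like cells (EpiLC), a later pluripotent state made from them. The XX cells were the wildtype LF2 line (3 mESC and 3 EpiLC libraries), the XY cells were the wildtype E14 line (3 and 3), and the Tet3-/- cells were LF2 cells labelled as mutant for Tet3, an enzyme that oxidises methylated DNA (4 mESC libraries, labelled mutants #1 to #4, and 3 EpiLC libraries, #1, #3 and #4). The mESC were kept in N2B27 medium with LIF, a GSK3 inhibitor and a MEK1/2 inhibitor, and EpiLC were given FGF5 and Activin A, with no LIF, for 5 days. Each sex is 1 cell line, so sex and line cannot be told apart, and LIF withdrawal cannot be told apart from the other changes of medium. The labels do not say how the mutants were made, whether each is a separate clone, or whether replicates were separate cultures, so the p-values below measure the spread between these libraries, which may be technical.

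LIF binds the receptor LIFR, which pairs with gp130, the product of Il6st and the signalling chain shared by the interleukin-6 family. JAK kinases bound to this pair phosphorylate STAT3, which enters the nucleus and there activates its targets, among them Socs3, whose product blocks the receptor and its kinases, and the survival kinases Pim1 and Pim3. In mESC this pathway sustains self-renewal through factors such as Klf4 and Tfcp2l1, and mESC that leave the naive state no longer need LIF.

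In the GENCODE annotation of GRCm38 the receptor genes are Lifr (ENSMUSG00000054263.12) at chr15:7090614-7197489 on the plus strand and Il6st (ENSMUSG00000021756.12) at chr13:112464070-112510086 on the plus strand. The kinase genes are Jak1 (ENSMUSG00000028530.14) at chr4:101152367-101265282 on the minus strand and Jak2 (ENSMUSG00000024789.13) at chr19:29251828-29313080 on the plus strand. The factor and its inhibitor are Stat3 (ENSMUSG00000004040.16) at chr11:100885098-100939540 on the minus strand and Socs3 (ENSMUSG00000053113.3) at chr11:117966079-117970047 on the minus strand, and the survival kinases are Pim1 (ENSMUSG00000024014.8) at chr17:29490753-29496112 on the plus strand and Pim3 (ENSMUSG00000035828.11) at chr15:88862186-88865726 on the plus strand. All values below sum the annotated transcripts of a gene.

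Levels are given as scaled TPM (a transcript's length-corrected share of a library, divided by a factor per library that brings the typical gene to the same level), and fold changes are differences of log2(scaled TPM + 1), EpiLC minus mESC unless stated. The scaling matters here: the abundant RNA Rn7s1 took 23.5% to 27.4% of TPM in XY EpiLC and 38.9% to 39.5% in XX EpiLC, and on TPM as deposited the typical tested gene (the median) shifted on the log2 scale by 0.14 in the XX, 0.54 in the XY and -0.13 in the Tet3-/- transition, and by -0.585 between XX and XY EpiLC. After scaling these 4 medians lay between -0.0031 and 0.0332. TPM keeps no depth, so the number of reads behind each value is unknown.

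The labelled states were checked against marker genes. All 7 naive markers (among them Nanog, Esrrb and Zfp42) fell in each of the 3 transitions, and their summed level was 477 to 587 scaled TPM in mESC and 33.4 to 85.4 in EpiLC. Of 5 EpiLC markers, 4 rose in XX and Otx2 fell, while all 5 rose in XY. In Tet3-/- cells 4 rose and Otx2 was not called. Pou5f1 and Sox2, listed as markers of all pluripotent cells, both fell in XX and XY cells. In Tet3-/- cells Sox2 fell and Pou5f1 was not called. The summed level of these 2 genes was 348 to 557 scaled TPM in mESC and 193 to 298 in EpiLC. Tet3 itself did not differ between Tet3-/- and XX cells by the test (0.497 to 0.856 against 0.613 to 1.24 scaled TPM in mESC, limma adjusted p 0.499; 1.07 to 1.34 against 1.43 to 1.97 in EpiLC, limma adjusted p 0.126), which does not check the labels, since a deletion can leave transcript.

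A pair of libraries stood apart from the rest of their groups on the second principal component: XX mESC replicate 2 (-6.27 against 34.4 and 29.8) and Tet3-/- EpiLC #3 (3.85 against 29.9 and 24.3). The Tet3-/- mESC libraries lay in pairs, #2 and #3 (1.19 and 2.91) apart from #1 and #4 (24.5 and 18.6). All XY libraries lay at -53.8 to -31.2 on this component. XX mESC replicate 2, Tet3-/- EpiLC #3 and Tet3-/- mESC #2 and #3 were thus nearer to the XY libraries than the rest of their groups were. The summed level of 6 primitive endoderm markers was lowest in XX mESC replicate 2 (1.37, against up to 10.4 in that group, with Gata6 and Dab2 the 2 markers above 1), and it was 0.958 to 4.60 in Tet3-/- mESC, 0.558 to 0.894 in XY mESC, 3.99 to 4.56 in XX EpiLC, 2.81 to 3.43 in XY EpiLC and 4.51 to 8.15 in Tet3-/- EpiLC. In Tet3-/- EpiLC #3 the sum of 4 trophoblast markers was 14.8, against 2.89 to 3.82 for the other 2 libraries, most of it Eomes, and no marker of either list was at 0 in all libraries of that group. Where leaving out either library changed a call of the 8 genes, both values are given. Their part in the results was not tested.

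**Figure D1:**
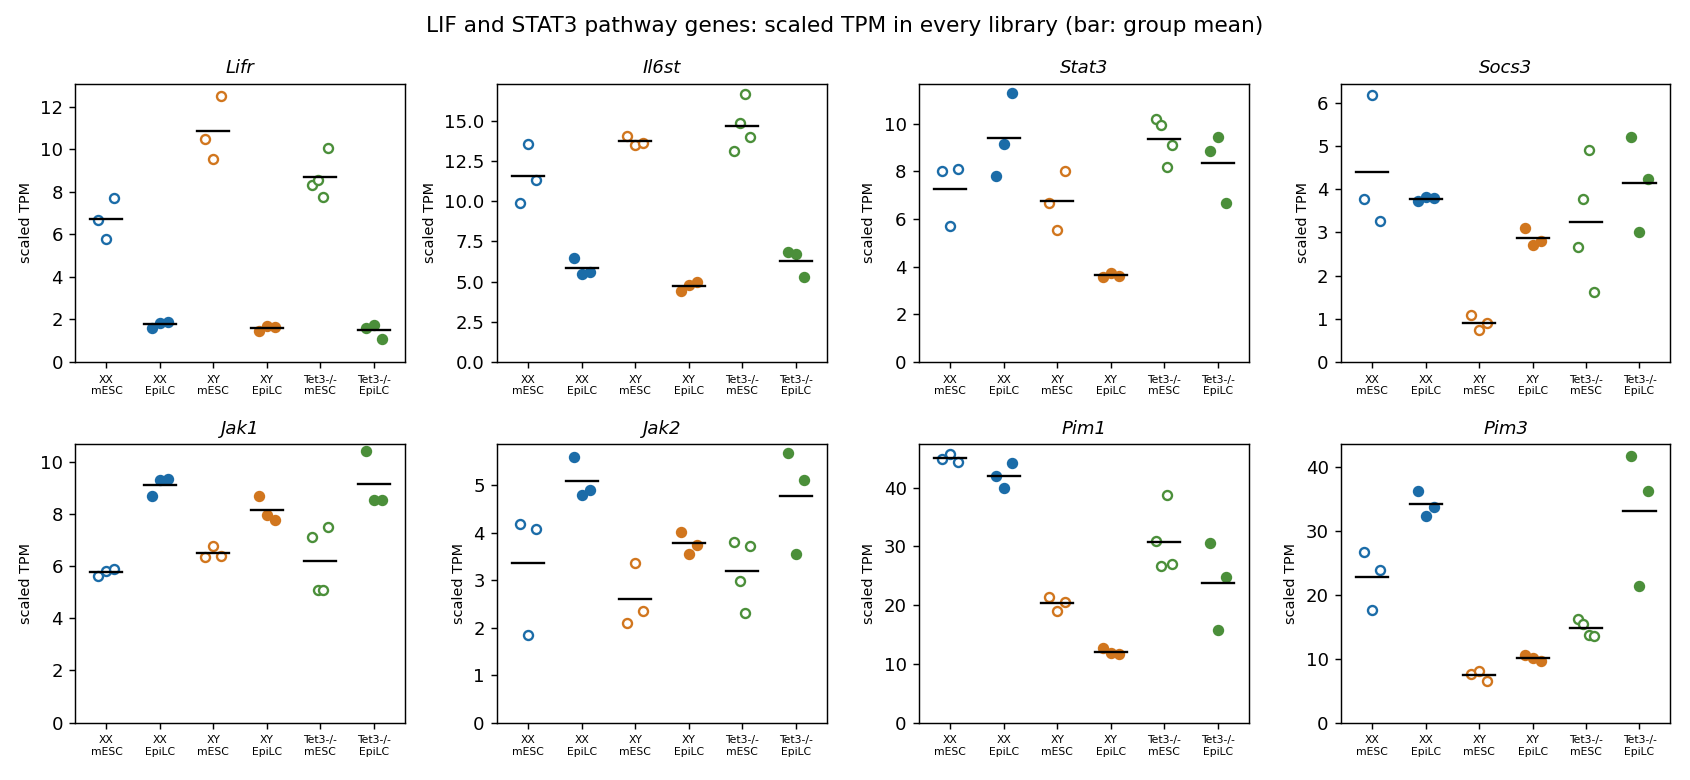
Scaled TPM (vertical axes, linear, from 0) of the 8 genes in each of the 19 libraries, by group (horizontal axes). Open points are mESC, filled points are EpiLC and bars are group means. Lifr and Il6st were lower in every EpiLC library than in every mESC library, and within each state each XY library was below every library of the LF2 groups for Pim1 and Pim3.

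In the transition from mESC to EpiLC the receptor genes Lifr and Il6st fell in all 3 genotypes. No other gene of the 8 was called in all 3 on scaled TPM, but this depended on the scaling. On TPM as deposited Pim3 was called higher in all 3 (0.72, 0.96 and 0.86 in XX, XY and Tet3-/- cells). With TPM rescaled over nuclear protein-coding genes, Jak1 (0.50) and Pim3 (0.63) were called higher in XY cells too. In XX cells 5 of the 8 genes were called by limma (adjusted p under 0.05): Lifr and Il6st fell, and Jak1, Jak2 and Pim3 rose. This was 5 of 8 where 50.8% of all 14696 genes were called, 26.4% higher and 24.4% lower. In these bulk libraries fewer cells that express a gene and less RNA per cell cannot be told apart. In XY cells 5 were called, of which Lifr, Il6st, Stat3 and Pim1 fell and Socs3 rose, against 51.1% of all genes (28.0% higher and 23.1% lower). In Tet3-/- cells 4 were called, with Lifr and Il6st lower and Jak1 and Pim3 higher, against 53.1% of all genes (26.4% higher and 26.7% lower). These shares are near those of all genes. The median log2 fold change of the 8 genes was 0.12, -0.21 and 0.08 in XX, XY and Tet3-/- cells, against 0.02, 0.03 and 0.01 for all genes.

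Between genotypes, Pim1 and Pim3 were higher in XX than in XY cells in both states. XX against XY cells differed for 4 of the 8 in mESC (Socs3, Pim1 and Pim3 higher in XX, Lifr lower), against a background of 31.6% of all genes (17.5% higher and 14.2% lower). Without XX mESC replicate 2 it was 6 of the 8, with a lower Il6st (-0.34) and a higher Jak2 (0.53) in XX, against 41.3% of all genes. In EpiLC 3 of the 8 differed (Stat3, Pim1 and Pim3, all higher in XX), against 34.2% of all genes (17.2% higher and 17.0% lower). Tet3-/- against XX cells gave no call among the 8 in mESC, where limma called 3.27% of all genes (1.91% higher and 1.36% lower), and 1 in EpiLC, a lower Pim1, where it called 5.57% (2.39% higher and 3.18% lower). Unadjusted, 5 of the 8 had a p under 0.05 in the mESC comparison, as did 14.9% of all genes. Without XX mESC replicate 2, Il6st and Pim3 were called there, against 11% of all genes.

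The transition itself was compared between genotypes with an interaction term. It differed between XX and XY cells for 4 of the 8 genes (Lifr, Il6st and Stat3 with the higher value in XX, Socs3 with the lower), against 23.5% of all genes (11.1% higher and 12.5% lower). Between Tet3-/- and XX cells limma called none of the 8, against 0.687% of all genes (0.231% higher and 0.456% lower), and 2 of the 8, Lifr and Stat3, had an unadjusted p under 0.05, as did 10.8% of all genes. The Tet3-/- against XX and XX against XY comparisons share the XX libraries and so are not independent.

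**Figure D2:**
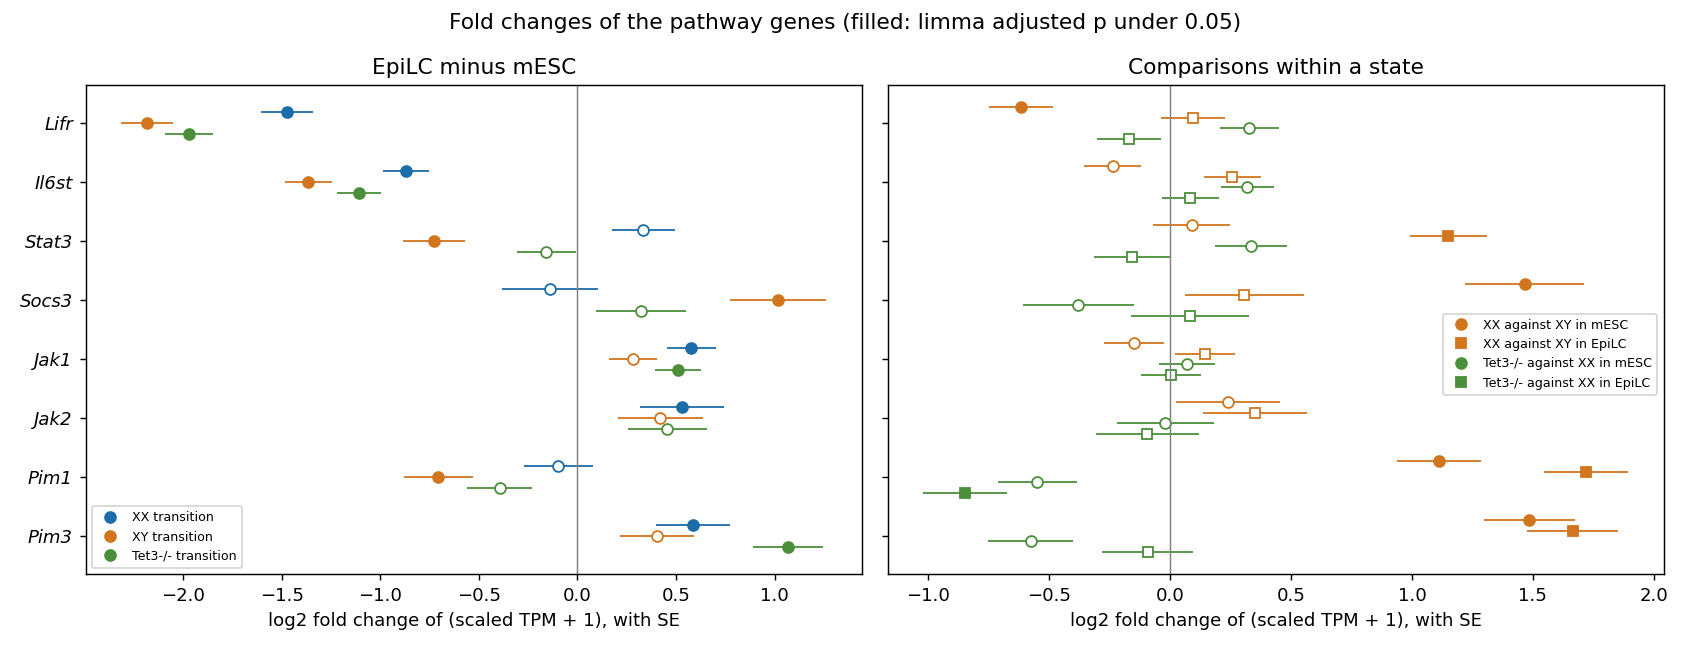
Log2 fold changes of the 8 genes (horizontal axes, with SE) for the 3 transitions (left) and for the comparisons between genotypes within a state (right, XX minus XY and Tet3-/- minus XX). Filled points passed limma's adjusted p of 0.05. Lifr and Il6st lie left of 0 in all 3 transitions, and Pim1 and Pim3 lie right of 0 for XX against XY in both states.

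Lifr, which encodes the chain that binds LIF, had the largest change of the 8 genes in each transition. It was at 6.67, 5.78 and 7.69 scaled TPM in the XX mESC libraries and at 1.60, 1.83 and 1.88 in XX EpiLC. In XY mESC it was at 10.5, 9.52 and 12.5 and in XY EpiLC at 1.45, 1.70 and 1.63. The Tet3-/- mESC libraries were at 8.33, 8.55, 7.76 and 10.1, and the Tet3-/- EpiLC libraries at 1.62, 1.75 and 1.07. Every EpiLC library lay below every mESC library, and the 3 EpiLC groups overlapped. Lifr fell by 1.47 on the log2 scale in XX (SE 0.13, limma adjusted p 1.15e-07), by 2.18 in XY (SE 0.13, limma adjusted p 8.69e-10) and by 1.97 in Tet3-/- cells (SE 0.12, limma adjusted p 1.16e-09).

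The deeper fall of Lifr in XY cells went with a higher start. In mESC the order of the group means was XY (10.8 ± 1.53, SD, n = 3), Tet3-/- (8.68 ± 0.987, SD, n = 4) and XX (6.72 ± 0.955, SD, n = 3). The XY libraries lay above all XX libraries, and XX was lower than XY by a log2 fold change of -0.62 (SE 0.13, limma adjusted p 0.00194). On TPM as deposited this was -0.85 and lost its call (limma adjusted p 0.0511), as it did with TPM rescaled over nuclear protein-coding genes (-0.58, limma adjusted p 0.0518). The transition differed between XX and XY by 0.71 (SE 0.19, limma adjusted p 0.0106), and by 0.47 on deposited TPM, where it was not called (limma adjusted p 0.457), nor was it with protein-coding rescaling (0.61, limma adjusted p 0.174). All 4 Tet3-/- mESC libraries were above all 3 XX libraries for Lifr, with a log2 fold change of 0.33 that was not called (SE 0.12, limma adjusted p 0.188).

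Il6st, which encodes gp130, also fell in all 3 transitions, with smaller fold changes. Its levels in mESC were 9.92, 13.6 and 11.3 scaled TPM in XX, 14.1, 13.5 and 13.6 in XY, and 13.2, 14.9, 16.7 and 14.0 in Tet3-/- libraries. In EpiLC they were 6.49, 5.49 and 5.60 in XX, 4.42, 4.78 and 5.00 in XY, and 6.84, 6.71 and 5.31 in Tet3-/- libraries. No EpiLC library reached the lowest mESC library, and XX and XY overlapped in mESC while every XX EpiLC library was above every XY one. Il6st fell by 0.87 in XX, 1.36 in XY and 1.11 in Tet3-/- cells on the log2 scale (SE 0.11 to 0.12, limma adjusted p 1.30e-05, 6.68e-08 and 3.30e-07). The fall in XX was -0.74 on deposited TPM and was not called there (limma adjusted p 0.0803). The difference of the XX and XY transitions, 0.49 (SE 0.17, limma adjusted p 0.0408), lost its call on deposited TPM (0.12), with protein-coding rescaling (0.37), with no filter, and without any 1 of the 12 libraries except XX mESC replicate 2. Between Tet3-/- and XX mESC Il6st differed by 0.32, which was not called (limma adjusted p 0.141) and was called without XX mESC replicate 2 (0.43, limma adjusted p 0.0223).

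The same long coding transcripts held most of both receptor genes in mESC and EpiLC. Lifr-201 and Lifr-203, which carry the same coding length of 1092 codons, together held most of Lifr in every group: Lifr-203 held 49.4%, 60.1% and 56.5% of it in XX, XY and Tet3-/- mESC and 63.1%, 62.3% and 54.5% in EpiLC. The shorter coding transcript Lifr-207 (719 codons) held 7.99% ± 2.90 of Lifr in XX mESC and 15.9% ± 6.04 in XY mESC (SD, 3 libraries each), and was listed at 0 in all 3 XX EpiLC libraries. In Tet3-/- cells it held 5.16% to 12.5% in mESC and 0% to 21.3% in EpiLC. For Il6st, the 917-codon transcripts Il6st-201 and Il6st-203 held 66.7% and 13.5% in XX mESC and 62.8% and 17.5% in XX EpiLC. Shares of transcripts are estimates of the quantification program, and no test was made on them.

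Jak1 and Jak2, the kinases that gp130 and LIFR carry, showed no called fall where the receptors fell. Jak1 was at 5.60, 5.82 and 5.87 scaled TPM in XX mESC and 8.67, 9.28 and 9.34 in XX EpiLC, a rise of 0.58 (SE 0.12, limma adjusted p 0.000989). In Tet3-/- mESC it was at 7.13, 5.07, 5.07 and 7.50 and in Tet3-/- EpiLC at 10.4, 8.54 and 8.53, a rise of 0.51 (SE 0.12, limma adjusted p 0.00139). In XY mESC it was at 6.36, 6.77 and 6.39 and in XY EpiLC at 8.68, 7.94 and 7.78. The groups did not overlap in any of the 3 transitions for Jak1. The XY difference, 0.28 (SE 0.12), was not called (limma adjusted p 0.0681), and it was called on deposited TPM (0.82), with protein-coding rescaling (0.50) and in a fit of the XY groups alone (0.30). On deposited TPM the XX and Tet3-/- rises, 0.69 and 0.32, were not called (limma adjusted p 0.0501 and 0.337). No difference between genotypes was called for Jak1 in either state. The difference of the XX and XY transitions, 0.30 (SE 0.17), was not called either (limma adjusted p 0.247).

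Jak2, the second kinase, spread widely in XX mESC. Its XX mESC libraries were at 4.18, 1.84 and 4.08 scaled TPM and its XX EpiLC libraries at 5.59, 4.80 and 4.89. The low value was in replicate 2, the library that stood apart. The rise of 0.53 in XX (SE 0.21, limma adjusted p 0.0496) was 0.24 without that library and lost its call (limma adjusted p 0.285), as it did with a pseudocount of 0.1, with no filter, in a fit of the XX groups alone and without any 1 XX EpiLC library. In XY cells Jak2 was at 2.10, 3.36 and 2.35 in mESC and 4.02, 3.56 and 3.74 in EpiLC, and in Tet3-/- cells at 3.80, 2.99, 2.32 and 3.71 in mESC and 5.67, 3.56 and 5.11 in EpiLC. Neither difference (0.42 and 0.46, SE 0.21 and 0.20) was called by limma (adjusted p 0.115 and 0.0667). The XY mESC and EpiLC libraries did not overlap. The XY difference was called on deposited TPM (0.92), with protein-coding rescaling (0.62) and in a fit of the XY groups alone (0.45). In the Tet3-/- EpiLC group the low library was #3, without which the difference was 0.62 and was called (limma adjusted p 0.0244).

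Stat3, the transcription factor at the centre of the pathway, fell in XY cells, and the difference from the XX transition was itself called. It was at 6.67, 5.54 and 8.03 scaled TPM in XY mESC and at 3.58, 3.74 and 3.61 in XY EpiLC. In XX mESC it was at 8.01, 5.69 and 8.07 and in XX EpiLC at 7.79, 9.13 and 11.3. In Tet3-/- mESC it was at 10.2, 9.95, 8.17 and 9.11 and in Tet3-/- EpiLC at 8.86, 9.45 and 6.69. The 3 XY EpiLC libraries were the lowest of all 19 and close to each other, while the other groups overlapped with their neighbours in the order of the means.

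The log2 fold change of Stat3 was -0.73 in XY (SE 0.16, limma adjusted p 0.00116), 0.33 in XX (SE 0.16, limma adjusted p 0.0929; 0.45 and called without EpiLC replicate 1, limma adjusted p 0.0441) and -0.16 in Tet3-/- cells (SE 0.15, limma adjusted p 0.397). The XX and XY transitions differed by 1.06 (SE 0.23, limma adjusted p 0.00269), and in EpiLC XX was higher than XY by 1.15 (SE 0.16, limma adjusted p 3.80e-05). On deposited TPM these 3 calls were lost: the XY fall was -0.25, the difference of transitions 0.70 and the EpiLC difference 0.55 (limma adjusted p 0.523, 0.306 and 0.145). With protein-coding rescaling the XY fall was -0.52 and the difference of transitions 0.96, neither called (limma adjusted p 0.0837 and 0.0642). Tet3-/- mESC libraries were all above XX mESC libraries for Stat3, by 0.34 on the log2 scale, which was not called (SE 0.15, limma adjusted p 0.295).

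The mean share of the main coding transcript of Stat3 was lower in EpiLC than in mESC in each genotype, with no test made. The main coding transcript, Stat3-203 (770 codons), held 72.4% ± 5.99 of Stat3 in XX mESC and 58.7% ± 8.29 in XX EpiLC (SD, 3 libraries each). In XY cells it held 76.1% ± 4.92 (SD, n = 3) and 43.6% ± 0.805 (SD, n = 3), and in Tet3-/- cells 72.5% ± 4.13 (SD, n = 4) and 64.5% ± 8.52 (SD, n = 3). Transcripts annotated as not protein-coding held 20.2%, 15.6% and 17.7% of Stat3 in XX, XY and Tet3-/- mESC and 31.1%, 43.7% and 27.8% in EpiLC. The ranges of XX mESC (17.0% to 23.9%) and XX EpiLC (25.4% to 39.0%) did not overlap, nor did those of XY (11.8% to 22.3% and 42.2% to 46.2%), while those of Tet3-/- cells did (10.9% to 22.9% and 18.7% to 35.7%).

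Counted over protein-coding transcripts alone, Stat3 was at 5.65 ± 0.692 scaled TPM in XY mESC and 2.05 ± 0.0357 in XY EpiLC (SD, n = 3 each), and its fold change was larger than over all transcripts, -1.11 (limma adjusted p 8.16e-07). In Tet3-/- cells the coding level was 7.68 ± 0.623 (SD, n = 4) in mESC and 5.94 ± 0.447 (SD, n = 3) in EpiLC, and it fell by 0.32 (limma adjusted p 0.0236), a change that was not called over all transcripts. In XX cells it was 5.76 ± 0.925 and 6.39 ± 0.544 (SD, n = 3 each), a fold change of 0.17 that was not called (limma adjusted p 0.265). By this count the XX and XY transitions of Stat3 differed by 1.28 (limma adjusted p 4.11e-05). An exon of Stat3 overlaps one of Stat5a on the opposite strand. The libraries mark strand, but whether the quantification used it is not given in the sources used here, so reads of the shared stretch are uncertain.

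**Figure D3:**
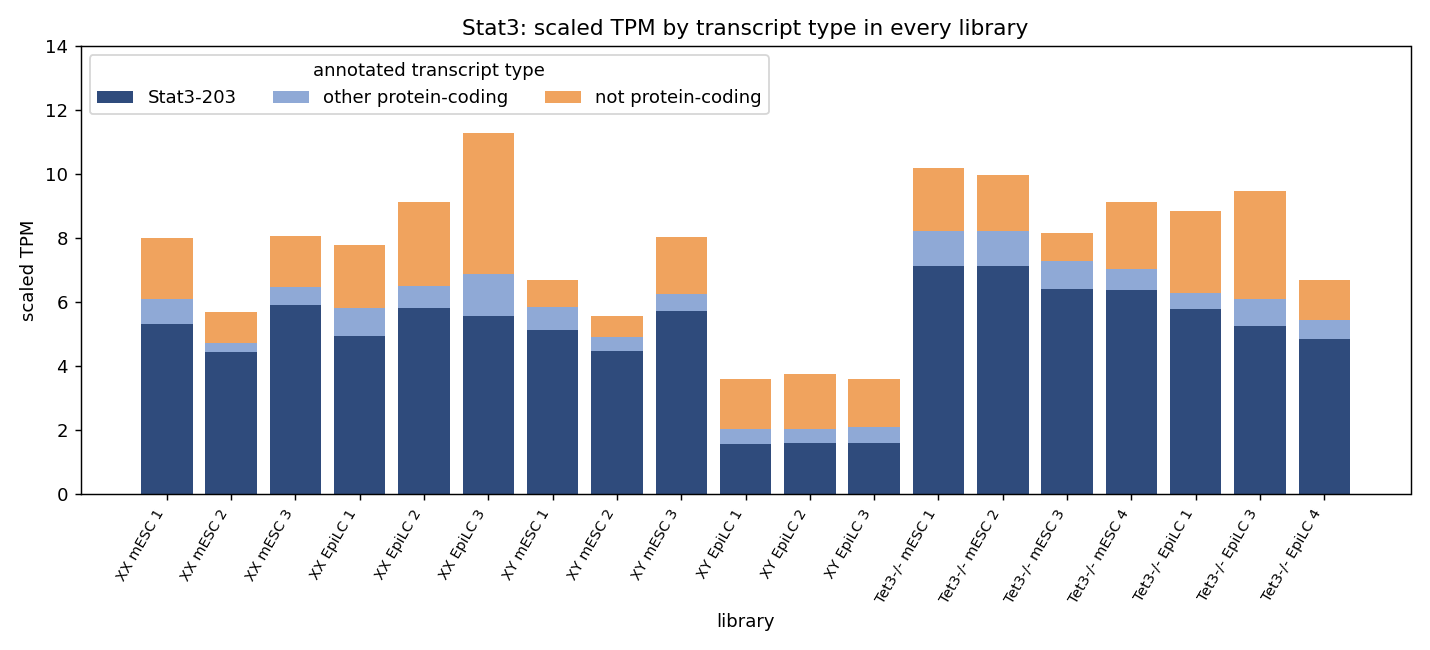
Scaled TPM of Stat3 (vertical axis, from 0) in each of the 19 libraries, stacked by the transcript Stat3-203, other protein-coding transcripts and transcripts not annotated as protein-coding. The 3 XY EpiLC bars are the shortest, at 3.58 to 3.74, and transcripts that are not protein-coding take 42.2% to 46.2% of them.

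Socs3, the feedback inhibitor that STAT3 induces, was set apart by its low level in XY mESC. It was at 1.09, 0.74 and 0.90 scaled TPM there and at 3.10, 2.71 and 2.79 in XY EpiLC. The XX mESC libraries were at 3.77, 6.18 and 3.27, and XX EpiLC at 3.74, 3.82 and 3.79. In Tet3-/- cells it was at 2.66, 3.77, 4.90 and 1.62 in mESC and at 5.20, 3.00 and 4.24 in EpiLC. The XY mESC libraries lay below all others, and the XX and Tet3-/- groups overlapped in both states. The highest value was in XX mESC replicate 2, the library that stood apart.

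Socs3 rose in XY cells by 1.02 (SE 0.24, limma adjusted p 0.00238). The changes in XX (-0.14, SE 0.24) and Tet3-/- cells (0.32, SE 0.23) were not called (limma adjusted p 0.665 and 0.255), and without XX mESC replicate 2 the XX value was 0.08. The XX and XY transitions differed by -1.16 (SE 0.35, limma adjusted p 0.0231), a call lost with no filter, with the replicate block and without XY EpiLC replicate 1 (limma adjusted p 0.0553, 0.058 and 0.0514). In mESC XX was higher than XY by 1.47 (SE 0.24, limma adjusted p 0.000262), and by 1.24 without replicate 2. In EpiLC the difference was 0.31 and was not called (limma adjusted p 0.363).

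Promoters were searched for the general STAT motif TTCNNNGAA, which reads the same on both strands, in the 250 bases before each start site of the RefSeq promoter table (GRCm38.p6). Of 10 windows found for the 8 genes, 1 held a match, that of Socs3, where 7.02% of all 32851 windows in the table held one. The stretch is printed because Socs3 is the gene of the set best known as a direct STAT3 target and the only one with a match. It lies at chr11:117969467-117969616 on the minus strand, inside the annotated span of Socs3 but outside the exons of the annotated transcripts. Within the window, it is the part farthest from the start site. It is given 5′ to 3′ with the match in capitals:
Socs3: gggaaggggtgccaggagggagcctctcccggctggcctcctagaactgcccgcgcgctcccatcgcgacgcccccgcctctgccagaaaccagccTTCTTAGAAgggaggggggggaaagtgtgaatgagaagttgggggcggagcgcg
The match lies 326 to 334 bases before the start of the only protein-coding Socs3 transcript, which held 84.8% to 95.9% of Socs3 as a mean in each group. The start site of the window lies 180 bases upstream of the start of that transcript. The 180 bases directly before that transcript were therefore not searched. A match is a description of letters and does not show binding. Of the 11 STAT3 target genes of the list described below for which the table held a window, 4 had a match in a window (Zfp36, Icam1, Sbno2 and Bcl6).

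Pim1 and Pim3, serine/threonine kinases that STAT3 induces and that promote survival and growth, differed between XX and XY cells in both states. Pim1 was at 44.9, 45.7 and 44.4 scaled TPM in XX mESC and 42.0, 39.9 and 44.3 in XX EpiLC. In XY mESC it was at 21.4, 18.9 and 20.5 and in XY EpiLC at 12.7, 11.9 and 11.6. In Tet3-/- cells it was at 30.9, 26.6, 38.7 and 26.9 in mESC and 30.6, 15.8 and 24.8 in EpiLC. In each state all XX libraries were above all Tet3-/- libraries, and the Tet3-/- libraries were above the XY ones.

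XX exceeded XY for Pim1 by 1.11 in mESC (SE 0.17, limma adjusted p 0.000154) and by 1.72 in EpiLC (SE 0.17, limma adjusted p 1.44e-06), with ratios of the means of 2.22 and 3.49. Pim1 fell in the XY transition by 0.70 (SE 0.17, limma adjusted p 0.003), a call lost on deposited TPM (-0.14). The XX and Tet3-/- changes, -0.10 and -0.39, were not called (limma adjusted p 0.677 and 0.0524). The Tet3-/- change ran from -0.59 without EpiLC #1 to -0.14 without EpiLC #3, and it was called without EpiLC #1 (limma adjusted p 0.00547), without mESC #2 or #4 (0.0396 and 0.0419) and with protein-coding rescaling (-0.49, limma adjusted p 0.0149). The XX and XY transitions did not differ by the test (0.61, SE 0.25, limma adjusted p 0.0871). Counted over protein-coding transcripts, that last difference was 0.78 and was called (limma adjusted p 0.0324).

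Pim1 was the only one of the 8 genes that limma called between Tet3-/- and XX cells, and only in EpiLC. There it was lower by a log2 fold change of -0.85 (SE 0.17, limma adjusted p 0.00843), with a ratio of the means of 0.564. The lowest library was #3, and without it the value was -0.59 (limma adjusted p 0.0186). On deposited TPM it was -0.94 and in a fit of these groups alone -0.84, and neither was called (limma adjusted p 0.124 and 0.0957). In mESC it was -0.55 and not called (SE 0.16, limma adjusted p 0.0868), with groups that did not overlap. Without Tet3-/- mESC #3 the mESC value was -0.66 and was called (limma adjusted p 0.0352). An exon of Pim1 overlaps one of Gm26885 on the opposite strand, and an exon of Jak1 one of Raver2.

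Pim3 had a called rise in the transition in the LF2 groups, was not called in XY cells, and differed between the lines in both states. It was at 26.7, 17.5 and 23.9 scaled TPM in XX mESC and 36.3, 32.3 and 33.7 in XX EpiLC. In XY mESC it was at 7.60, 8.02 and 6.50 and in XY EpiLC at 10.5, 10.0 and 9.60. In Tet3-/- cells it was at 16.2, 15.3, 13.8 and 13.5 in mESC and 41.7, 21.4 and 36.2 in EpiLC. The mESC and EpiLC libraries did not overlap in any genotype, and each XY library was below every library of the LF2 groups.

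Pim3 rose by 0.59 in XX (SE 0.19, limma adjusted p 0.0161) and by 1.07 in Tet3-/- cells (SE 0.18, limma adjusted p 8.26e-05). The XX rise was 0.41 without mESC replicate 2, and was then not called (limma adjusted p 0.0837). It was also not called without EpiLC replicate 1 (0.54, limma adjusted p 0.0518). The XY change, 0.40 (SE 0.19), was not called (limma adjusted p 0.0841), and was called on deposited TPM (0.96), with protein-coding rescaling (0.63) and in a fit of the XY groups alone (0.42). The difference of the XX and XY transitions was 0.18 (SE 0.27) and was not called (limma adjusted p 0.676). XX exceeded XY by 1.49 in mESC and 1.67 in EpiLC (SE 0.19 each, limma adjusted p 2.10e-05 and 4.75e-06), with ratios of the means of 3.08 and 3.39. Tet3-/- mESC were below XX mESC in all libraries, by -0.58 on the log2 scale (SE 0.18), which was not called (limma adjusted p 0.0957) and was called without XX mESC replicate 2 (-0.74, limma adjusted p 0.0169).

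The third PIM kinase, Pim2, a gene of the X chromosome, went the other way between the lines. It was at 164, 150 and 153 scaled TPM in XY EpiLC and at 6.49, 4.56 and 6.89 in XY mESC, a rise of 4.50 on the log2 scale (limma adjusted p 4.97e-06). In XX cells it was at 2.50 to 2.62 in mESC and 2.83 to 3.02 in EpiLC. Of the Tet3-/- EpiLC libraries, #3 was at 35.3 while #1 and #4 were at 2.53 and 2.83. Thus in XY EpiLC Pim2 was far above Pim1 and Pim3, and in XX cells it was far below them, on a scale that is per transcript length.

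**Figure D4:**
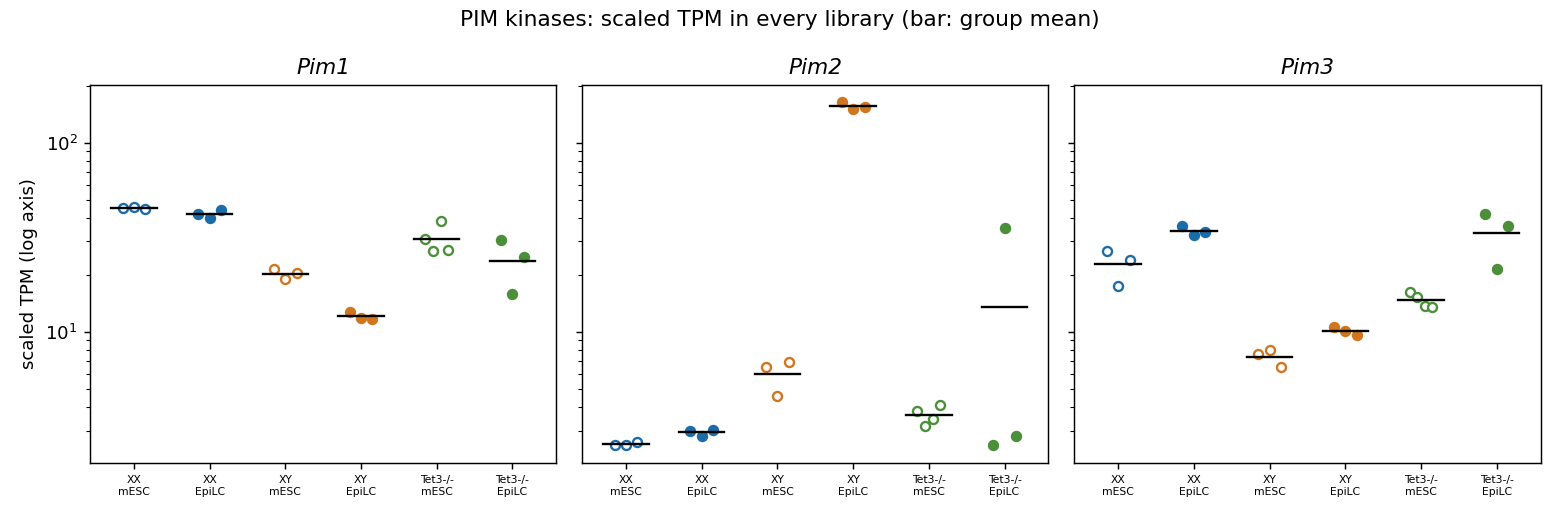
Scaled TPM of the 3 PIM kinases (vertical axis, logarithmic) in each of the 19 libraries by group. Open points are mESC, filled points are EpiLC and bars are group means. Pim2 is at 150 to 164 in XY EpiLC and at or under 6.89 in all mESC libraries, and 1 Tet3-/- EpiLC library, #3, is at 35.3.

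The remaining genes of the pathway were taken from lists written with earlier results of these data known, so their counts are a description. Of 8 ligands of the interleukin-6 family 6 were tested, and Il6 and Ctf2 were under the filter. In XX cells 3 rose and 1 fell (median log2 fold change 0.51 against 0.02 for all genes), in XY cells 3 rose and 1 fell (0.44 against 0.03) and in Tet3-/- cells 4 rose and 1 fell (0.66 against 0.01). Among all genes limma called 26.4%, 28.0% and 26.4% higher and 24.4%, 23.1% and 26.7% lower in these transitions. Osm, the ligand oncostatin M, fell in all 3 (by 1.01, 2.35 and 1.60). The largest called rise was that of Clcf1 in XX (0.99), Lif in XY (0.57) and Il11 in Tet3-/- cells (1.28). Il11 passed the filter only through the 3 Tet3-/- EpiLC libraries (1.15 to 1.96 scaled TPM), the group where it was high, so its rise there is given as a description. Without Tet3-/- EpiLC #3, and so without Il11, 2 of 5 ligands tested rose in XX, 2 in XY and 3 in Tet3-/- cells. Of all genes 54.7%, 55% and 54.5% were then called in either direction. Lif was measured in the cells, and was at 3.36 to 4.26 scaled TPM in XX EpiLC and 2.18 to 3.07 in XX mESC (0.41, not called, limma adjusted p 0.0908), while it rose in XY (0.57) and Tet3-/- cells (0.68).

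Of 5 other receptor genes 3 were tested, and Osmr and Il27ra were not. In each transition 1 rose and 1 fell: Cntfr, the binding chain for ciliary neurotrophic factor that works with LIFR and gp130, rose by 2.03, 1.97 and 2.81 in XX, XY and Tet3-/- cells, and Il6ra, the binding chain for interleukin-6, fell by 0.62, 2.13 and 0.85. Of all genes 50.8%, 51.1% and 53.1% were called in these transitions. The list medians were 0.62, 0.49 and -0.27. Without XX mESC replicate 2 the XX median was 0.30, and without Tet3-/- EpiLC #3 the Tet3-/- median was 0.0013. Cntfr was at 3.24 to 3.69 scaled TPM in the wildtype EpiLC and 4.67 to 7.88 in Tet3-/- EpiLC, a difference from XX that was called (0.70) and was not called on deposited TPM. On deposited TPM 2 rose and none fell in XX cells, and 2 rose and 1 fell in XY cells.

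All 8 other JAK and STAT genes were tested. In XX cells 2 rose and 2 fell, in XY cells 2 rose and 5 fell, and in Tet3-/- cells 1 rose and 4 fell (list medians -0.23, -0.49 and -0.30). Of all genes 26.4%, 28.0% and 26.4% were called higher and 24.4%, 23.1% and 26.7% lower. Stat5b rose in all 3 (1.21, 1.00 and 1.23), and Jak3, a kinase of cytokine receptors, fell in all 3 (by 0.61, 1.25 and 1.17), with a larger fall in XX for Stat4 (by 0.77). On deposited TPM, where 7 were tested, 2 rose and none fell in XX cells, so neither Jak3 nor Stat4 had a called fall there. In XY cells the count was then 2 higher and 2 lower (median 0.04), and in Tet3-/- cells 1 higher and 2 lower.

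Inhibitors other than Socs3 were called in both directions. Of 14, 13 were tested (Socs1 was not). Of these 5 rose and 3 fell in XX, 3 rose and 5 fell in XY, and 5 rose and 4 fell in Tet3-/- cells. In these transitions 50.8%, 51.1% and 53.1% of all genes were called. The medians of the inhibitors were -0.08, 0.11 and 0.03. On deposited TPM the XY count was 6 higher and 2 lower (median 0.62). Cish, a SOCS family member induced by STAT5, rose in all 3 (0.99, 0.50 and 0.87), with larger rises for Pias1 in XY (0.55) and Socs5 in Tet3-/- cells (0.91), and Pias2, of the PIAS family, fell most (by 1.54, 1.38 and 1.79). Among 5 adaptors that lead from the receptor to ERK and PI3K signalling, Shc1 rose most (1.86, 0.91 and 1.81), and Ptpn11, the phosphatase SHP2, rose in all 3 (1.40, 0.74 and 1.42). Grb2, which links receptors to RAS, fell in XY (by 0.46) and Tet3-/- cells (by 0.37) on scaled TPM. Neither fall was called on deposited TPM or with protein-coding rescaling, where no adaptor was called lower. The adaptor counts were 3 higher and 0 lower in XX, 3 and 1 in XY and 2 and 1 in Tet3-/- cells (medians 0.55, 0.28 and 0.11), and on deposited TPM the Tet3-/- median was -0.10.

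**Figure D5:**
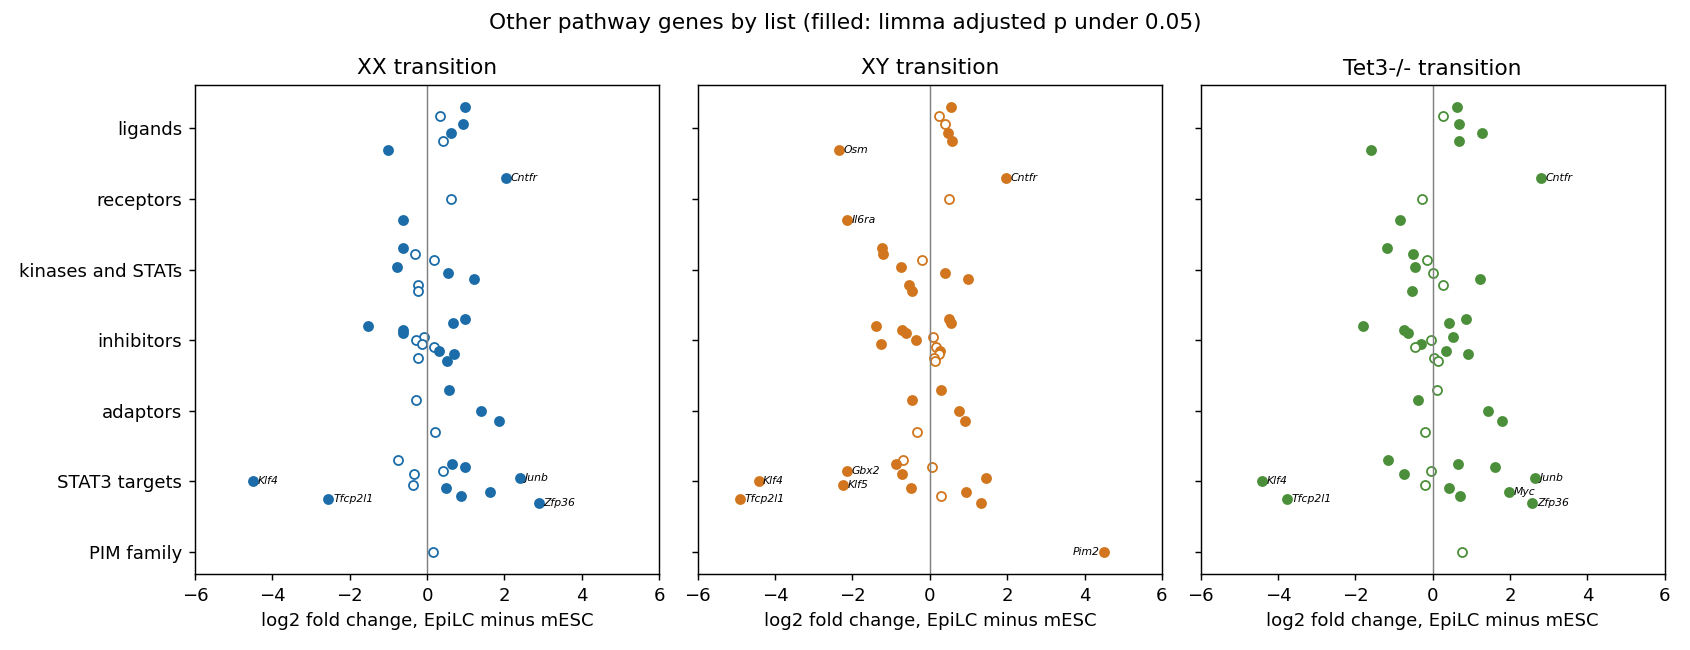
Log2 fold changes, EpiLC minus mESC, of the other pathway genes tested (horizontal axes) by list (vertical axis) in XX, XY and Tet3-/- cells. Each point is 1 gene, filled where limma's adjusted p was under 0.05, and genes past 1.9 in size are named. Klf4 and Tfcp2l1 lie at the far left in all 3 panels, and Pim2 lies at 4.50 in XY only.

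Among STAT3 target genes, the naive factors Klf4 and Tfcp2l1 fell and Junb, Zfp36 and Myc rose in all 3 genotypes. Of 14 listed, 13 were tested (Cebpd was not). In XX cells 7 rose and 2 fell (median 0.49), in XY cells 3 rose and 7 fell (median -0.69), and in Tet3-/- cells 7 rose and 4 fell (median 0.42), against the 50.8%, 51.1% and 53.1% of all genes called. On deposited TPM 4 rose and 5 fell in XY (median -0.31) and 5 rose and 4 fell in Tet3-/- cells (median 0.21). Klf4, a naive pluripotency factor, was at 50.1 to 55.6 scaled TPM in XX mESC and 1.25 to 1.45 in XX EpiLC, and it fell by 4.51, 4.43 and 4.41 in XX, XY and Tet3-/- cells. Tfcp2l1, another such factor, fell by 2.55, 4.91 and 3.76. Junb, an AP-1 subunit, rose by 2.41, 1.44 and 2.64, and Zfp36, which promotes mRNA decay, by 2.88, 1.33 and 2.58. Myc rose by 1.62, 0.92 and 1.96.

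Target genes called between the lines in EpiLC were all higher in XX. There, 10 of the 13 were higher in XX than in XY, as were 17.2% of all genes, and none was lower (median 0.95 against 0.00 for all genes), with 2.87 for Klf5 and 2.70 for Tfcp2l1. In the same comparison 5 of 7 naive markers were higher in XX (median 1.28) and all 5 EpiLC markers lower (median -1.69). Klf4, Klf5 and Tfcp2l1 among the targets are naive-state factors themselves. The markers' part in the result was not tested. On deposited TPM 8 targets were higher and none lower (median 0.76). In mESC 5 were higher and 3 lower (median 0.35), against 17.5% and 14.2% of all genes. On deposited TPM the mESC counts were 2 and 2 (median 0.09). Without XX mESC replicate 2 the mESC median was 0.18. The transition differed for 8 of the 13, each with the higher value in XX, against 23.5% of all genes (11.1% higher). It differed for 4 on deposited TPM. Between Tet3-/- and XX cells Klf5, a naive factor, was lower in mESC (-1.52) and EpiLC (-1.36), and Tfcp2l1 was lower in EpiLC (-1.36), and no other target was called. On deposited TPM none of these 3 was called. Of all genes, 3.27% were called in the mESC comparison and 5.57% in the EpiLC comparison on scaled TPM. Klf5 was at 28.5 to 35.4 in XX mESC and 9.70 to 11.5 in Tet3-/- mESC.

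For each of the 8 genes the most alike genes were sought by Pearson's r of log2(scaled TPM + 1) over the 19 libraries among 12408 other protein-coding genes. The 19 points share groups and library scaling, and r is given as a description. Lifr was most like Cobl (r = 0.987) and Dnajc6 (0.987), and Il6st was most like Prss35 (0.979) and Plpp1 (0.977). Jak1 was most like Stx2 (0.934), Jak2 most like Smpd1 (0.961), Socs3 most like Zfp1 (0.944), Pim1 most like Tbc1d10a (0.912) and Pim3 most like Bex1 (0.968). Stat3 had the weakest best match of the 8, Myo1e (0.874).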

How the data were processed

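Ribosomal RNA had been depleted and stranded total RNA libraries made, per the labels' protocols. The authors deposited TPM per transcript, and the submitters' processing notes name FastQC 0.11.7, Trimmomatic 0.35, Salmon 1.1.0 and GRCm38; the annotation release and strand setting are not given in the sources used here. Depth is unknown. Of 140948 transcripts 139357 matched GENCODE M21 with version and 495 without, and 1096 did not. TPM were summed per gene and divided by median-of-ratios factors over 9186 genes at 1 TPM or more in all 19 libraries. Genes at 1 or more in at least 3 libraries were tested with limma 3.58.1 (R 4.3.3, trended variance) on log2(scaled TPM + 1), which understates changes of low genes, over all 6 groups (13 residual degrees of freedom), with Benjamini-Hochberg adjustment over all genes tested and a threshold of 0.05. On simulated data limma recovered 69.5% of 200 genes changed by 1 on the log2 scale in the XX transition and 47.5% in the difference of the XX and XY transitions. In each, 12 unchanged genes were called. All but the 200 genes were unchanged there, while 50.8% and 23.5% of genes were called in the data. These recovery shares therefore need not hold for the data. Alternatives were other scalings, filters, pseudocounts, groups and transcripts, a replicate block and leaving out each library. The members and lists were chosen with earlier results of these data known. Named were the 8 genes, for each the most alike genes by Pearson's r, and per list the called gene with the largest rise and fall in each transition, with other list genes as chosen after their values were seen.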

Additional observations from a re-analysis of the deposited data

Results flagged for a closer look

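For 4 of the 8 genes the change from mESC to EpiLC differed between XX and XY cells by the interaction term of limma. The same held for 23.5% of all genes. The difference, XX minus XY on the log2 scale, was 0.711 for Lifr, which fell in both lines, and 0.494 for Il6st, which also fell in both. It was 1.06 for Stat3, which fell in XY and was not called in XX, and -1.16 for Socs3, which rose in XY and was not called in XX. On deposited TPM only that of Socs3 was called (-1.51, limma adjusted p 0.0217). Each line is 1 cell line, so line and sex cannot be told apart. None of the 8 genes had a library far from the rest of its group of 4 by Dixon's test. That test covered only the Tet3-/- mESC group.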

How the results depend on the processing

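Lifr and Il6st fell in all 3 transitions under every alternative run, and each fall was called except that of Il6st in XX cells on deposited TPM. The number of the 8 genes called changed as follows. In the XX transition it was 5, 3 on deposited TPM and 3 to 5 with 1 library left out, where 7466, 4689 and 6425 to 7464 of all genes were called. In the XY transition it was 5, and 8 in a fit of those groups alone, where 7512 and 7901 of all genes were called. For Tet3-/- against XX it was 0 in mESC and 0 to 2 with 1 library left out, and in EpiLC 1, with 0 on deposited TPM and 0 in a fit of those groups alone. Between XX and XY EpiLC it was 3, and 6 in a fit of those groups alone. For the difference of the XX and XY transitions it was 4, 1 on deposited TPM, 1 with protein-coding rescaling, 2 with no filter, 2 with the replicate block, and 2 to 4 with 1 library left out. Of all genes 3457 were called in that difference, 2397 on deposited TPM and 2579 with protein-coding rescaling. The count over all genes was 3378 with no filter, 3014 with the replicate block and 2610 to 4617 with 1 library left out. Not every same-numbered pair of mESC and EpiLC libraries deviated together (r = 0.0444, -0.0499 and 0.0575 in XX, 0.2024, -0.0276 and 0.2703 in XY, 0.2153, 0.2285 and -0.0908 in Tet3-/-). Libraries with different numbers had r of -0.0877 to 0.0403 in XX, -0.2729 to 0.0848 in XY and -0.277 to 0.2001 in Tet3-/-. The main fit did not pair the libraries by number. These values do not settle whether the numbers mark pairs, and the Tet3-/- labels use the same mutant numbers in both states. Under the replicate block Il6st (0.49, limma adjusted p 0.0977) and Socs3 (-1.16, limma adjusted p 0.058) lost their call in that difference. Values that changed sign were not called under either setting. On deposited TPM these were, for XX against XY in EpiLC, Lifr -0.38, Il6st -0.36, Socs3 -0.25, Jak1 -0.51 and Jak2 -0.24; for XX against XY in mESC, Stat3 -0.15; for the difference of those transitions, Jak1 -0.14, Jak2 -0.27 and Pim3 -0.24; for Tet3-/- against XX, Jak1 -0.079 in EpiLC and Jak2 0.19 in mESC; and Pim1 0.046 in the XX transition. With protein-coding rescaling they were Il6st -0.049, Socs3 -0.049 and Jak1 -0.14 for Tet3-/- against XX in EpiLC, Jak2 0.017 in mESC, Jak2 -0.00298 in the XX and XY difference and Pim1 0.013 in the XX transition. Over protein-coding transcripts they were Il6st -0.00244 for Tet3-/- against XX in EpiLC and Pim1 0.071 in the XX transition, and with the replicate block Jak1 -0.048 for Tet3-/- against XX in EpiLC. With 1 library left out the ranges that crossed 0 were, for Tet3-/- against XX in mESC, Jak1 -0.014 to 0.15 and Jak2 -0.30 to 0.13; in EpiLC, Socs3 -0.063 to 0.25, Jak1 -0.082 to 0.047, Jak2 -0.21 to 0.070 and Pim3 -0.28 to 0.19. For the difference of the Tet3-/- and XX transitions they were Jak1 -0.15 to 0.018 and Jak2 -0.22 to 0.21, for that of XX and XY Jak2 -0.18 to 0.26, for XX against XY in mESC Stat3 -0.026 to 0.24, and for the XX transition Socs3 -0.29 to 0.081. The cause was not tested. Over all genes, on deposited TPM the calls went from 7466 to 4689 in the XX transition, from 480 to 90 between Tet3-/- and XX mESC, from 819 to 161 between their EpiLC, from 4646 to 2121 for XX against XY in mESC, and from 101 to 26 for the difference of the Tet3-/- and XX transitions. The share of calls that were higher went from 54.8% to 81.5% in the XY transition, from 49.7% to 38.7% in Tet3-/-, from 58.3% to 82.2% and from 42.9% to 11.2% between Tet3-/- and XX mESC and EpiLC, from 50.3% to 11.1% between XX and XY EpiLC, from 33.7% to 0% in the difference of the Tet3-/- and XX transitions, and from 47% to 22.5% in that of XX and XY. The 480 calls in mESC became 185 with protein-coding rescaling, 304 with no filter, 5 in a fit of those groups alone, and 195 to 1607 with 1 library left out (1607 without XX mESC replicate 2). The 819 in EpiLC became 446 in a fit of those groups alone and 350 to 939 with 1 library left out. The 101 became 64 with a pseudocount of 0.1, 50 in a fit of those groups alone, 11 with the replicate block and 40 to 350 with 1 library left out. Between XX and XY a fit of those groups alone took the calls from 4646 to 2264 in mESC and from 5024 to 8231 in EpiLC.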
